A study of Solanum lycopersicum with 24 samples.

Results

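CBF1 and ICE1A are a pair of tomato transcription factor genes that act one after the other in the response of plants to cold. They were taken by the transcript identifiers NM_001247194.2 (CBF1) and NM_001287789.1 (ICE1A), which makes 2 of the 45845 transcripts of the deposited table. The table holds 1 transcript for each of these genes, so no choice between isoforms was needed. Both were followed over 4 conditions and 3 RNA fractions of leaves, with 2 libraries in each of the 12 groups and 24 libraries in all.

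All plants were 28-day-old Solanum lycopersicum of the selection line YaLF, and no transgene or mutation was compared. The growth temperature was 25 °C, and the study's methods give 22 °C for the Control condition. Hardening plants were held in the cold for 5 days, at 6 °C by the labels and at 4 °C by the methods. Stress plants spent 2 h at 0 °C without hardening, and in Combo the same 2 h at 0 °C came after the hardening. Leaves of these last conditions were taken 2 h later in the day, so the treatment and the time of day cannot be told apart in a comparison across these pairs. The libraries were made from total RNA, from the monosome fraction (mRNA with a single ribosome) and from the polysome fraction (mRNA with several ribosomes). The methods call the libraries of a group technical repeats and the column headings call them biological replicates, so the p-values may measure technical spread only.

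ICE1 is a basic helix-loop-helix factor that is present before cold arrives. In Arabidopsis it is stabilised and modified in the cold and binds the promoters of CBF genes. CBF1 belongs to the AP2/ERF family, and its mRNA is known in many plants for a fast and short-lived rise in the cold. CBF proteins bind the C-repeat (DRE) element in the promoters of cold-responsive genes, among them those for dehydrins and other protective proteins. Because much of the control of ICE1 is on its protein, its mRNA is only a partial measure of its activity.

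The values are TPM, a share of the library corrected for transcript length. They keep no counts, so the counting error of a single value cannot be taken from them, although the study reports the reads per sample. TPM of individual libraries are given as deposited. Log2 changes and folds are of TPM scaled between libraries. The log2 changes had 1 added before the logarithm. Folds are ratios of mean scaled TPM without the added 1, so the 2 measures differ where values are low. "Up" or "Down" needed a log2 change beyond 1 in size and an adjusted p under 0.05 in limma (Benjamini-Hochberg adjustment over every transcript tested). The top 10 transcripts held from 6.67% to 15.9% of all TPM in the 8 total RNA libraries, from 11.02% to 60.02% in polysomes and from 10.3% to 68.9% in monosomes. The 16 leaf markers, transcripts of RuBisCO small subunits and chlorophyll-binding proteins, were all present in every group and the 5 markers of pollen, fruit and flower summed to 0.865 TPM or less in every library.

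The libraries of the ribosome fractions labelled Hardening and Stress stood against their labels. For each fraction, the deviation of each condition from the mean of the 4 conditions was correlated between fractions over 19291 transcripts, without CBF1 and ICE1A, as a description. Polysomes labelled Hardening had a Pearson r of -0.715 with total RNA labelled Hardening, of 0.776 with Stress and of 0.722 with Control. Polysomes labelled Stress had r = -0.661 with total RNA labelled Stress, 0.614 with Hardening and 0.647 with Combo. The monosomes also had negative values between equal labels, r = -0.682 for Hardening and r = -0.658 for Stress. Monosomes labelled Hardening had r = 0.624 with total RNA labelled Stress and 0.672 with Control. Those labelled Stress had r = 0.716 with Hardening and 0.672 with Combo. Equal labels gave positive values in Control (0.685 for polysomes and 0.623 for monosomes) and in Combo (0.799 and 0.681). They were not always the highest. Control polysomes had r = 0.697 with total RNA labelled Stress, and Combo monosomes had r = 0.700 with that labelled Hardening. Each of the 8 ribosome libraries labelled Hardening or Stress had a negative r with total RNA of its own label. The check thus separates Control and Stress of total RNA from Hardening and Combo, but it cannot settle the choice within either pair. The groups are used as labelled, and which labels are right, those of total RNA or those of the ribosome fractions, is not known. Ratios between fractions are therefore given first for Control and Combo, and those of the other labels are given as values of "the libraries labelled" so. The comparisons within total RNA rest on the labels of total RNA alone.

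**Figure D1:**
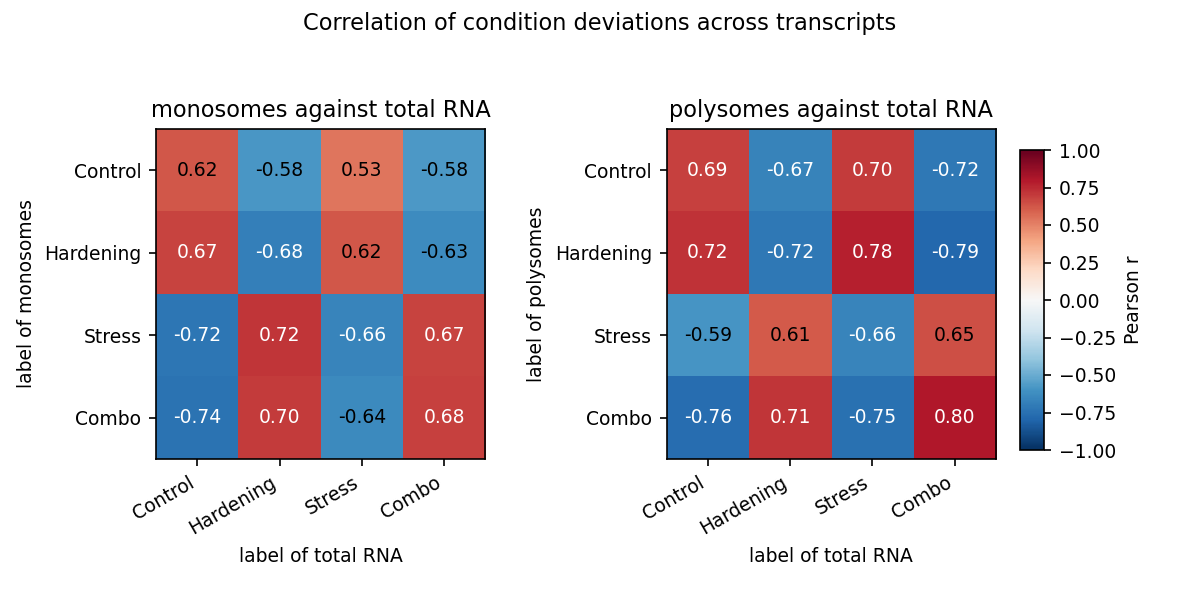
Pearson r over 19291 transcripts between the condition deviations of total RNA (columns, by label) and those of monosomes (left) and polysomes (right; rows, by label). Red is positive and blue is negative, and the cells of equal label are negative for Hardening and for Stress in both fractions.

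CBF1 in total RNA was low in Control leaves, lower after 5 days of hardening and high after 2 h at 0 °C. It was at 12.2 and 8.17 TPM in the Control libraries and at 3.23 and 2.60 TPM in the Hardening libraries. The Stress libraries held 195 and 186 TPM. The Combo libraries, hardened before the same 2 h at 0 °C, held 10.9 and 12.5 TPM. Stress thus stood apart from the other conditions, Hardening lay below all of them, and the Control and Combo libraries overlapped. Among the 21981 transcripts tested, CBF1 lay between the 96.4 and 96.5 percentile of TPM in the Stress libraries and between the 23.0 and 29.0 percentile in the Hardening libraries. In Control it lay between the 54.4 and 64.2 percentile and in Combo between the 56.4 and 60.2 percentile.

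**Figure D2:**
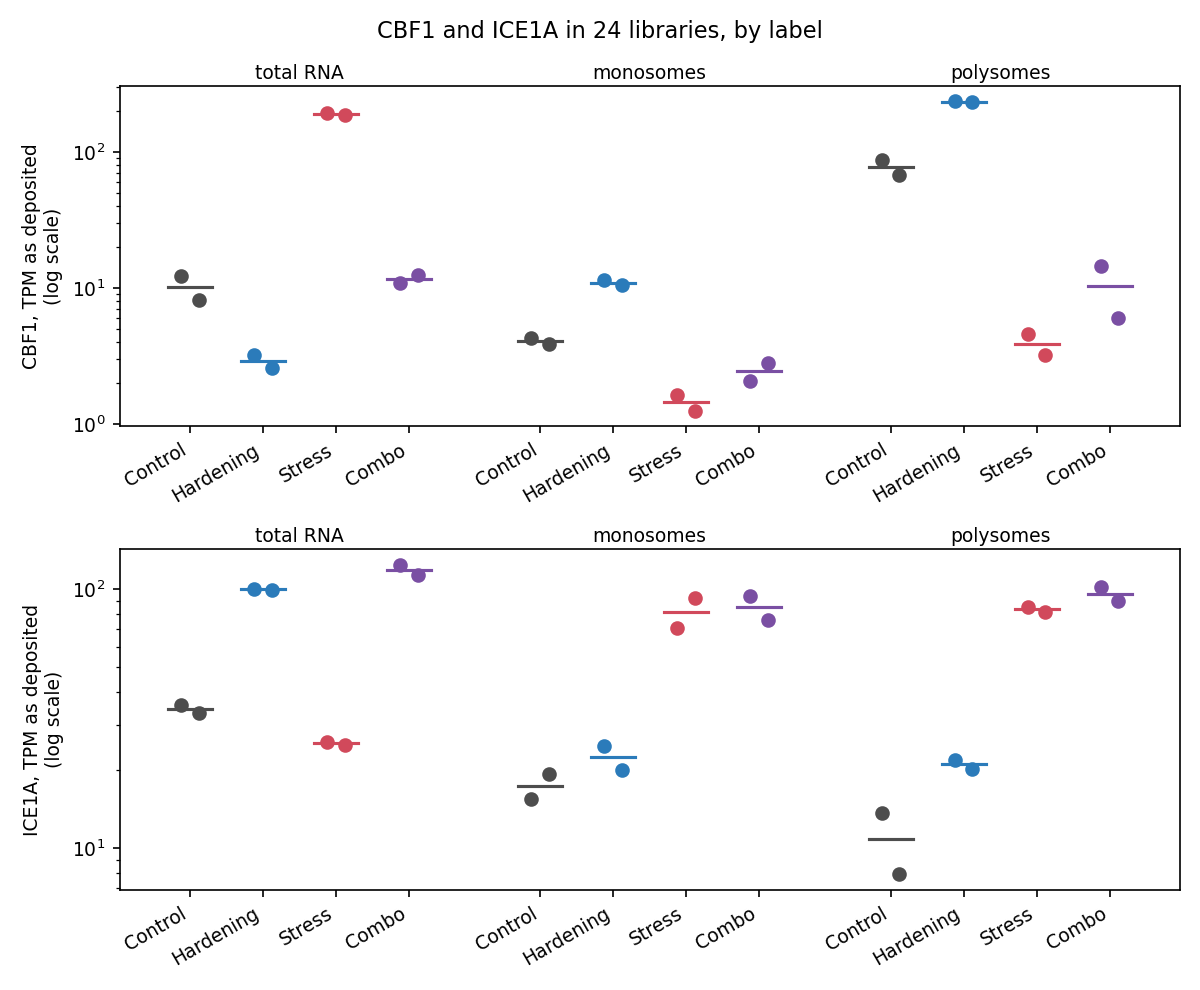
TPM as deposited (log scale) of CBF1 (top) and ICE1A (bottom) in each library, by fraction and label, where a point is a library and a line is the mean of 2. In total RNA the Stress libraries have the most CBF1 (195 and 186 TPM) and the least ICE1A (25.8 and 25.1 TPM).

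The acute response, Stress_vs_Control, was an increase of CBF1 from 10.2 ± 2.86 to 191 ± 6.63 TPM (SD, n = 2). The log2 change was 3.99 (SE 0.20, 95% CI 3.51 to 4.47, adjusted p = 0.000219), or 16.9-fold on scaled TPM. In this comparison 2.09% of the tested transcripts were Up and 2.11% were Down, and the change of CBF1 was in place 3 from the top. CBF1 had been singled out in an earlier look at this very comparison, so its p is not independent evidence. Both genes were chosen with earlier results of these data known, so the p-values of the other comparisons are not independent evidence either. ICE1A was lower in the same comparison, at 25.8 and 25.1 TPM in Stress against 35.7 and 33.4 TPM in Control. The groups did not overlap, yet the log2 change of -0.57 (95% CI -0.75 to -0.40, adjusted p = 0.00537) was too small to be called.

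The long cold, Hardening_vs_Control, moved the genes in opposite directions. CBF1 fell by 1.79 on the log2 scale (SE 0.20, 95% CI -2.27 to -1.31, adjusted p = 0.000351). Its mean scaled TPM, without the added 1, was 4.45-fold lower. ICE1A rose from 34.6 ± 1.66 to 100.05 ± 0.809 TPM, with 101 and 99.5 TPM in the Hardening libraries. Its log2 change was 1.17 (SE 0.07, 95% CI 0.99 to 1.34, adjusted p = 3.06e-05), or 2.27-fold. Calls were common in this comparison, where 14.3% of transcripts were Up and 16.5% Down, so either call alone sets its gene little apart from the rest. All 16 leaf markers were Down as well, and their summed TPM went from between 101255 and 103710 in Control to between 13405 and 13419 in Hardening. In these bulk samples fewer cells of a type and less RNA per cell cannot be told apart, and the part of the leaf markers in the changes of CBF1 and ICE1A was not tested. In Stress_vs_Control none of the 16 leaf markers was called, which is near the background of 2.09% Up and 2.11% Down.

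ICE1A remained high when hardened plants went to 0 °C. The Combo libraries held 124 and 113 TPM, and Combo_vs_Control gave a log2 change of 1.43 (adjusted p = 1.07e-05), a comparison with 16.3% of transcripts Up and 19.3% Down. Against Hardening the change was 0.26 (95% CI 0.09 to 0.44, adjusted p = 0.0576) and was not called. The order of ICE1A was therefore Stress, Control, Hardening and Combo, and only the neighbours Hardening and Combo missed the threshold on p, although the change between Stress and Control was under the size limit. For CBF1 the order was Hardening, then Control and Combo, then Stress. Combo_vs_Control of CBF1 was -0.10 (95% CI -0.58 to 0.38, adjusted p = 0.675), so a change up to that interval could not be told from none.

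Hardening before the 0 °C exposure was followed by a smaller rise of CBF1. Combo_vs_Hardening was Up with a log2 change of 1.69 (SE 0.20, 95% CI 1.21 to 2.17, adjusted p = 0.00309), 4.06-fold on scaled TPM, in a comparison where 1.87% of transcripts were Up and 2.32% Down. The rise without hardening, 3.99, was larger. The difference between the rises, tested as an interaction in the same fit, was -2.30 (SE 0.28, 95% CI -2.97 to -1.63, adjusted p = 0.00478). Of all transcripts 3.32% had such a difference in the Up direction and 3.55% in the Down direction, and CBF1 was in place 93 from the bottom. At the end of the 0 °C exposure CBF1 was 18.5-fold lower in Combo than in Stress (log2 change -4.09, adjusted p = 8.42e-06), where 17.1% of transcripts were Up and 19.1% Down.

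ICE1A had the opposite sign of interaction. It was lower after 0 °C in plants without hardening (-0.57) and slightly higher in hardened plants (0.26), and the difference of 0.83 (SE 0.10, 95% CI 0.59 to 1.08, adjusted p = 0.0052) stayed under the size limit. Combo_vs_Stress was Up for ICE1A by 2.00 on the log2 scale (adjusted p = 3.13e-06), or 4.11-fold. Stress_vs_Hardening set the short cold against the long one directly, with 16.9% of transcripts Up and 16.1% Down. CBF1 was 75.1-fold higher in Stress there (log2 change 5.78, adjusted p = 2.97e-06) and ICE1A was 3.42-fold lower (-1.74, adjusted p = 6.28e-06). This comparison also crosses the collection times.

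**Figure D3:**
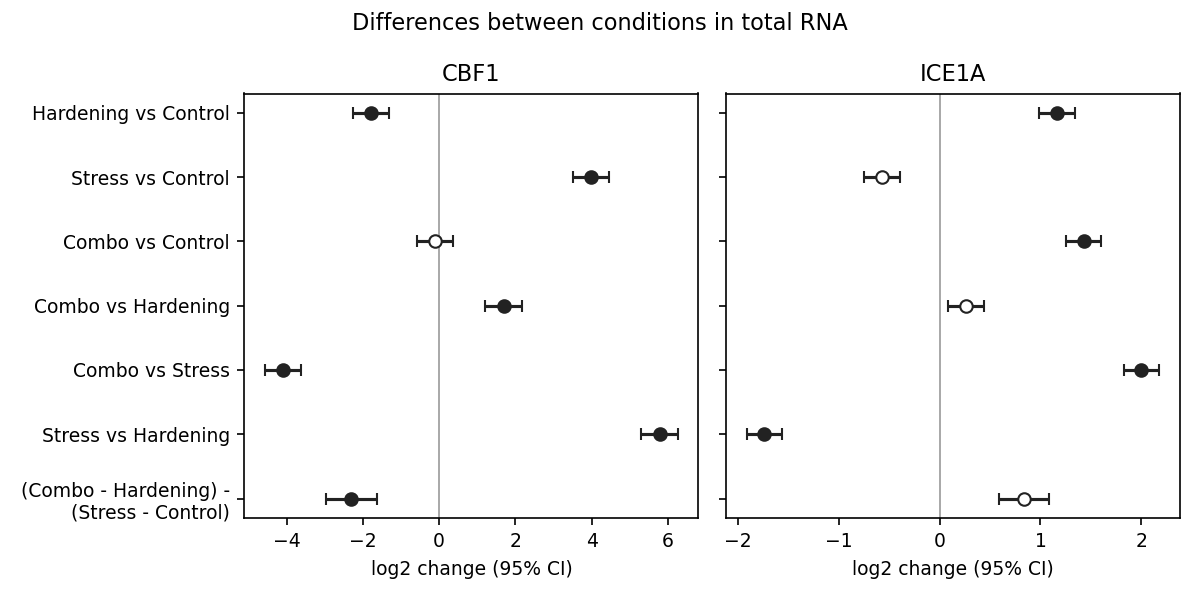
Log2 change with its 95% confidence interval for CBF1 (left) and ICE1A (right) in 6 comparisons of total RNA and in the difference between the responses to 0 °C. Filled points are called Up or Down and open points are not, and the interaction of CBF1 lies at -2.30.

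The ratio of CBF1 to ICE1A within a library needs no scaling between libraries. In total RNA it was 0.342 and 0.245 in Control, 0.0321 and 0.0261 in Hardening, 7.58 and 7.41 in Stress, and 0.0874 and 0.110 in Combo. CBF1 thus had more TPM than ICE1A in the Stress libraries alone among the 8 total RNA libraries. The Combo ratio lay above that of Hardening and below that of Control, without overlap, whereas the TPM of CBF1 by itself did overlap between Combo and Control.

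In ribosome fractions of Control leaves, CBF1 took a far larger share of the polysomes than of total RNA. The Control polysome libraries held 88.0 and 67.5 TPM and the total RNA libraries 12.2 and 8.17 TPM, and the log2 ratio was 4.53 (95% CI 3.86 to 5.20, adjusted p = 3.08e-06), or 25.5-fold on scaled TPM. Of 20086 transcripts tested, 7.37% were Up and 13.8% Down in this ratio, and CBF1 was in place 22 from the top. Without scaling between libraries the ratio was 2.83, beside a median of -1.37 over all transcripts (-0.10 after scaling). A larger share of a fraction does not give the amount of mRNA in it, because each library sums to the same total. The label check did not settle Control against Stress for the Control polysomes, and CBF1 was highest in total RNA labelled Stress.

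In Combo leaves CBF1 had no such excess. It was at 14.7 and 6.01 TPM in polysomes and at 10.9 and 12.5 TPM in total RNA, so the groups overlapped. The log2 ratio was 0.06 (95% CI -0.61 to 0.73, adjusted p = 0.927), where 3.1% of transcripts were Up and 5.97% Down. Combo minus Control was -4.47 (SE 0.43, 95% CI -5.42 to -3.52, adjusted p = 0.000204), in place 19 from the bottom, with 6.12% of transcripts Up and 3.21% Down. Fitted on the Control and Combo libraries alone, without the libraries that stood against their labels, this difference was -4.46 (adjusted p = 0.0106). It was -3.10 with TPM as deposited, beside a median of 1.12 over all transcripts (0.14 after scaling). On the log scale the Combo polysome libraries differed more from each other in CBF1 than those of the other labels, and the difference ranged from -5.30 to -3.66 when replicates were left out.

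ICE1A did not share this pattern in Control and Combo. It was at 13.7 and 7.95 TPM in Control polysomes and at 102 and 90.0 TPM in Combo polysomes, a rise in the polysomes that followed total RNA. The polysome to total ratio was 0.02 in Control (95% CI -0.33 to 0.38, adjusted p = 0.922) and 0.06 in Combo (95% CI -0.30 to 0.42, adjusted p = 0.856). Their difference was 0.03 (95% CI -0.47 to 0.54, adjusted p = 0.944). These values depend on the scaling: with TPM as deposited the Control ratio was -1.63 and the difference 1.33 (adjusted p = 0.00114), while the medians over all transcripts were -1.37 and 1.12.

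Set against ICE1A within each library, the shift of CBF1 to polysomes needs no scaling. In Control the CBF1 to ICE1A ratio was 6.44 and 8.49 in polysomes, 0.342 and 0.245 in total RNA and 0.279 and 0.202 in monosomes. Polysomes stood apart, and total RNA and monosomes overlapped. In Combo the ratio was 0.143 and 0.0668 in polysomes, 0.0874 and 0.110 in total RNA and 0.0222 and 0.0371 in monosomes. There polysomes overlapped with total RNA and monosomes lay below both.

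Monosomes of Control and Combo had fewer TPM of CBF1 than total RNA. Its place among the transcripts tested in total RNA was not lower in Control, however. It lay between the 68.2 and 69.6 percentile in Control monosomes and between the 54.4 and 64.2 percentile in Control total RNA. The Control monosome libraries had 4.32 and 3.91 TPM, and the monosome to total ratio was 0.55 (95% CI 0.04 to 1.05, adjusted p = 0.0845), not called where 8.51% of 19977 transcripts were Up and 17.6% Down. With TPM as deposited this ratio was -1.11 (adjusted p = 0.000533), beside a median of -1.50 over all transcripts (-0.20 after scaling). In Combo CBF1 had 2.09 and 2.83 TPM and was Down by a log2 ratio of -1.44 (95% CI -1.95 to -0.94, adjusted p = 0.00123), with 7.85% Up and 8.28% Down overall. Combo minus Control was -1.99 (adjusted p = 0.00286; 11% Up and 4.77% Down), but -0.77 with TPM as deposited, which was not called.

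ICE1A was more evenly spread over the ribosome fractions. It had 15.5 and 19.3 TPM in Control monosomes and 94.4 and 76.4 TPM in Combo monosomes, and its monosome to total ratios of 0.87 (adjusted p = 0.00324) and -0.03 (adjusted p = 0.938) were not called. Their difference of -0.89 (adjusted p = 0.0318) was not called either. The Control ratio was -0.96 with TPM as deposited and the difference 0.48, so the direction of both rests on the scaling.

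Between the ribosome fractions the scaling mattered less. CBF1 was Up in polysomes over monosomes in Control by a log2 ratio of 4.01 (95% CI 3.34 to 4.68, adjusted p = 3.07e-05), or 18.1-fold, where 10.4% of 17642 transcripts were Up and 5.74% Down. With TPM as deposited the ratio was 3.93. Against total RNA the Control polysome libraries had r = 0.598 and 0.599 with Stress and 0.587 and 0.590 with Control. The Control monosome libraries were nearest to Control (0.511 and 0.521). Whether both fractions hold the same condition was thus not settled for this ratio. In Combo it was 1.45 (95% CI 0.78 to 2.12, adjusted p = 0.0797) and was not called, and 0.317% of all transcripts were Up and 0.0453% Down there. This Combo value was called without the lower polysome library (1.98, adjusted p = 0.0397). ICE1A was at -0.75 in Control (adjusted p = 0.0385) and at 0.15 in Combo (adjusted p = 1), and neither was called.

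**Figure D4:**
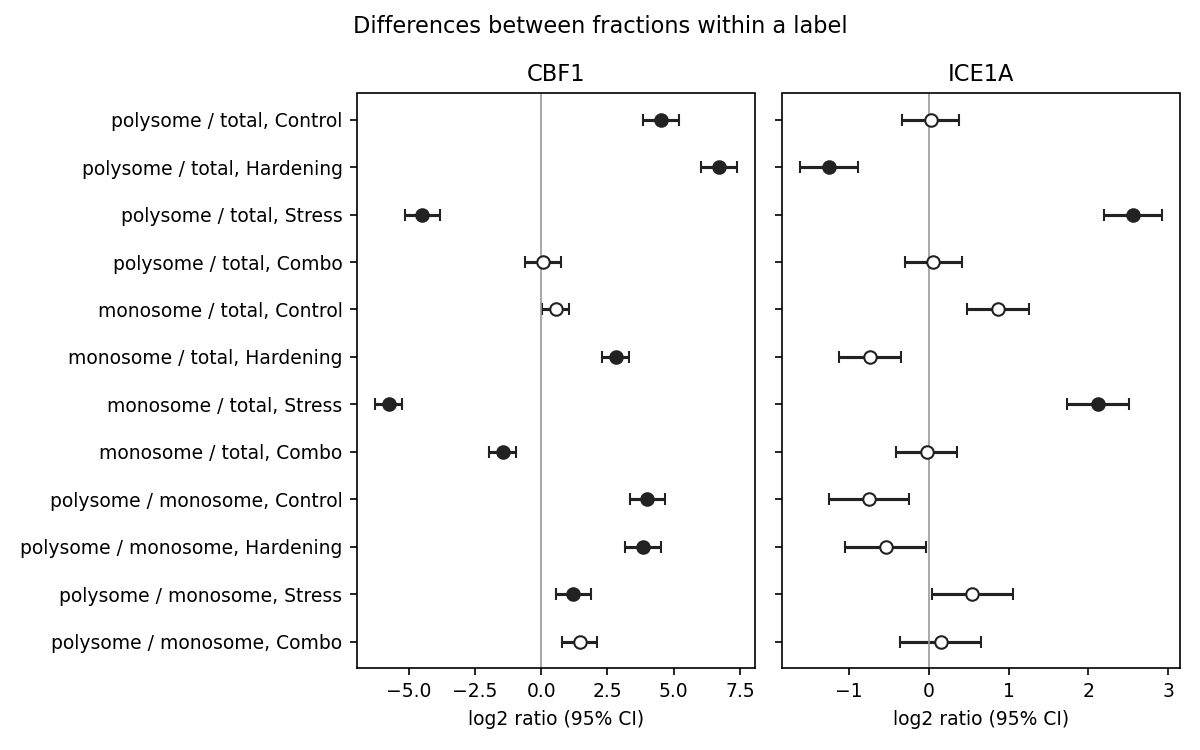
Log2 ratio between fractions of the same label, with its 95% confidence interval, for CBF1 (left) and ICE1A (right). Filled points are called Up or Down, and the polysome to total ratio of CBF1 is 4.53 in Control and 0.06 in Combo.

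The libraries labelled Hardening and Stress had the levels of CBF1 and ICE1A turned round between total RNA and the ribosome fractions. CBF1 was at 236 and 232 TPM in polysomes labelled Hardening and at 4.60 and 3.22 TPM in polysomes labelled Stress. ICE1A was at 21.99 and 20.3 TPM in polysomes labelled Hardening and at 85.7 and 81.8 TPM in those labelled Stress. Monosomes had the same order, with CBF1 at 11.4 and 10.6 TPM under Hardening and at 1.66 and 1.26 TPM under Stress. For ICE1A the monosome values were 24.8 and 20.0 TPM and 70.6 and 92.4 TPM. In total RNA both genes had the opposite order between these labels, the direction of the negative correlations over 19291 transcripts given above. Single transcripts could differ from it, such as DREB3 in polysomes (223 and 220 TPM labelled Hardening, 327 and 394 TPM labelled Stress).

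The ratios between fractions of these libraries were opposed in the same way. As labelled, the polysome to total ratio of CBF1 was 6.70 in Hardening (adjusted p = 1.94e-08; 20.4% of transcripts Up and 19.4% Down) and -4.47 in Stress (adjusted p = 3.30e-07; 22.7% Up and 25.5% Down). That of ICE1A was -1.25 (adjusted p = 6.04e-05) and 2.56 (adjusted p = 1.98e-07). The monosome to total ratios were 2.81 and -5.75 for CBF1 (adjusted p = 3.26e-06 and 3.52e-08) and -0.74 and 2.12 for ICE1A (adjusted p = 0.00481, not called, and 3.36e-06). The background was 17.1% Up and 22.8% Down under Hardening, and 22.6% Up and 19.9% Down under Stress. Set against the Control ratio, the differences of the polysome to total ratio were 2.17 and -9.00 for CBF1 and -1.28 and 2.53 for ICE1A, beside 19.3% Up and 12.9% Down for Hardening and 23% Up and 19% Down for Stress. Those of the monosome to total ratio were 2.26 and -6.30 for CBF1 and -1.60 and 1.26 for ICE1A, beside 16.2% Up and 12.7% Down, and 22.4% Up and 12.6% Down. Each of these ratios sets libraries with opposed profiles against each other, so none is read as ribosome association.

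Between polysomes and monosomes equal labels had a positive r, 0.625 for Hardening and 0.585 for Stress. A ratio within the ribosome fractions thus does not set opposed profiles against each other. Whether both fractions of a label hold the same condition is not settled, because the check against total RNA could not choose within a pair. CBF1 was Up in polysomes over monosomes in the libraries labelled Hardening, by 3.84 (adjusted p = 9.54e-05; 7.19% of transcripts Up and 3.53% Down). In those labelled Stress the ratio was 1.22 (adjusted p = 0.0307; 3.03% Up and 3.61% Down). The latter was no longer called when any of the 4 libraries behind it was left out (adjusted p from 0.0509 to 0.191). CBF1 thus had more TPM in polysomes than in monosomes in all 4 labels, and the excess was larger in Control and labelled Hardening than in labelled Stress and Combo, a difference that was not tested. ICE1A was not called in either label (-0.54, adjusted p = 0.149, and 0.55, adjusted p = 0.175).

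Relatives of CBF1 with a CBF or DREB symbol, which are AP2/ERF factors too, were measured by 3 further transcripts. Relatives without such a symbol were not part of the list. DREB1 was under the filter on low values, at 0.551 to 1.71 TPM in total RNA, and was not tested. DREB2 fell in Hardening by 2.33 on the log2 scale (adjusted p = 8.34e-05), from 5.33 and 6.42 TPM to 0.361 and 0.892 TPM. In Stress it was at 9.87 and 11.3 TPM, and in Combo at 0.930 and 1.10 TPM. DREB3 was the most abundant, at 226 and 199 TPM in Control, 186 and 164 TPM in Hardening, 446 and 389 TPM in Stress and 344 and 299 TPM in Combo. Its Stress_vs_Control change of 0.82 (adjusted p = 0.0101) was under the size limit.

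Of the 3 tested transcripts of this family, 0 were Up and 2 Down in Hardening_vs_Control (14.3% and 16.5% of all transcripts), with a median log2 change of -1.79 beside 0.05 over all transcripts. In Stress_vs_Control 1 was Up (2.09% of all), CBF1 itself, with a median of 0.82 beside -0.04. All 3 were Up in Stress_vs_Hardening, where 16.9% of all were Up. The names table holds DREB2 also as another name of ERF-H14 (NM_001329213.2), a transcript that the list did not take and that was looked at after its values were seen. ERF-H14 had 0.899 and 1.19 TPM in Control, 22.1 and 17.3 TPM in Hardening, 9.24 and 6.42 TPM in Stress and 46.1 and 42.2 TPM in Combo, so it was higher in both kinds of cold. ICE1A was the only member of the ICE1 list in the table.

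Genes named like regulators of CBF genes or of ICE1 known in Arabidopsis made up a list of 25 transcripts of 15 genes. They were taken by symbol alone, and whether each acts on CBF1 or ICE1A in tomato was not tested. Of these transcripts 17 were tested for change. In Stress_vs_Control, where CBF1 rose, 0 were Up and 0 Down in limma (2.09% and 2.11% of all transcripts), with a median of 0.16. In Hardening_vs_Control 2 were Up and 3 Down (14.3% and 16.5% of all), with a median of -0.01. With TPM as deposited the split was 4 Up and 2 Down of 18, where 22.3% and 12.0% of all were called. All of these counts are near the background.

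The Up transcripts were HY5 and SR3L. HY5, a bZIP factor of light signalling that in Arabidopsis also takes part in cold acclimation, was at 3.77 and 3.22 TPM in Control and at 45.8 and 51.4 TPM in Hardening (log2 change 3.16, adjusted p = 8.09e-06). SR3L (XM_026028463.1), of the calmodulin-binding SR/CAMTA factors, rose by 1.75 (adjusted p = 0.000202). Several transcripts of SR3L are in the table and share sequence, so the split between them is uncertain.

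MPK3 fell in Hardening. It is a MAP kinase whose Arabidopsis counterpart phosphorylates ICE1 and lowers its stability. It was at 186 and 249 TPM in Control and at 34.9 and 48.7 TPM in Hardening (log2 change -2.70, adjusted p = 5.70e-05). MYC2, a factor of jasmonate signalling, changed by -1.95 (adjusted p = 8.82e-06) and EIL1, of ethylene signalling, by -1.14 (adjusted p = 0.000831). When hardened plants went to 0 °C, MPK3 rose by 1.27 (adjusted p = 0.00827) and HY5 fell by 1.72 (adjusted p = 0.000983). These were the calls of the list in Combo_vs_Hardening, in which CBF1 rose. They made 1 Up and 1 Down of 17, where 1.87% and 2.32% of all transcripts were called.

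Protective proteins of the cold response, the kind of gene that CBF factors bind, were measured by 7 transcripts, all tested. In Hardening_vs_Control, where CBF1 fell and ICE1A rose, 4 were Up and 1 Down (14.3% and 16.5% of all transcripts), with a median log2 change of 1.25 beside 0.05 over all transcripts. In Stress_vs_Control, where CBF1 rose, 0 were Up and 1 Down (2.09% and 2.11% of all), with a median of -0.27. In Combo_vs_Control, where CBF1 was not called, 5 were Up and 1 Down (16.3% and 19.3% of all), with a median of 2.19. With 2.09% of all transcripts Up in Stress_vs_Control, a count of 0 among 7 is near the background.

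LE25, a late embryogenesis abundant protein, had the largest change of the list. It was at 1.54 and 2.66 TPM in Control, 1003 and 861 TPM in Hardening, 0.925 and 1.43 TPM in Stress and 1883 and 1727 TPM in Combo. Its Hardening_vs_Control change was 7.97 (adjusted p = 1.52e-06). TAS14, a dehydrin, was at 14.3 and 14.6 TPM in Control and at 93.1 and 107 TPM in Hardening (log2 change 2.38, adjusted p = 1.09e-05). It had 4.60 and 6.05 TPM in Stress, where it fell by 1.44 (adjusted p = 0.00102), and 262 and 263 TPM in Combo.

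A further dehydrin, DHN, rose by 2.26 in Hardening (adjusted p = 0.000189). GolS2, a galactinol synthase of the raffinose pathway, rose by 1.25 (adjusted p = 0.000245). COR413IM1, whose name is that of a chloroplast membrane protein of Arabidopsis, was Down by a log2 change of -2.49 (adjusted p = 3.25e-05). In Combo_vs_Hardening TAS14 (1.40, adjusted p = 0.000981) and GolS-1 (1.53, adjusted p = 0.00248) were Up. That was 2 Up and 0 Down of 7, where 1.87% and 2.32% of all transcripts were called. The interaction was Up for TAS14, GolS-1 and LE25 (2.84, 1.54 and 1.58, with adjusted p = 0.000728, 0.0102 and 0.0182), the opposite sign to that of CBF1. It was called for 3 Up and 0 Down of 7, beside 3.32% and 3.55% of all transcripts.

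**Figure D5:**
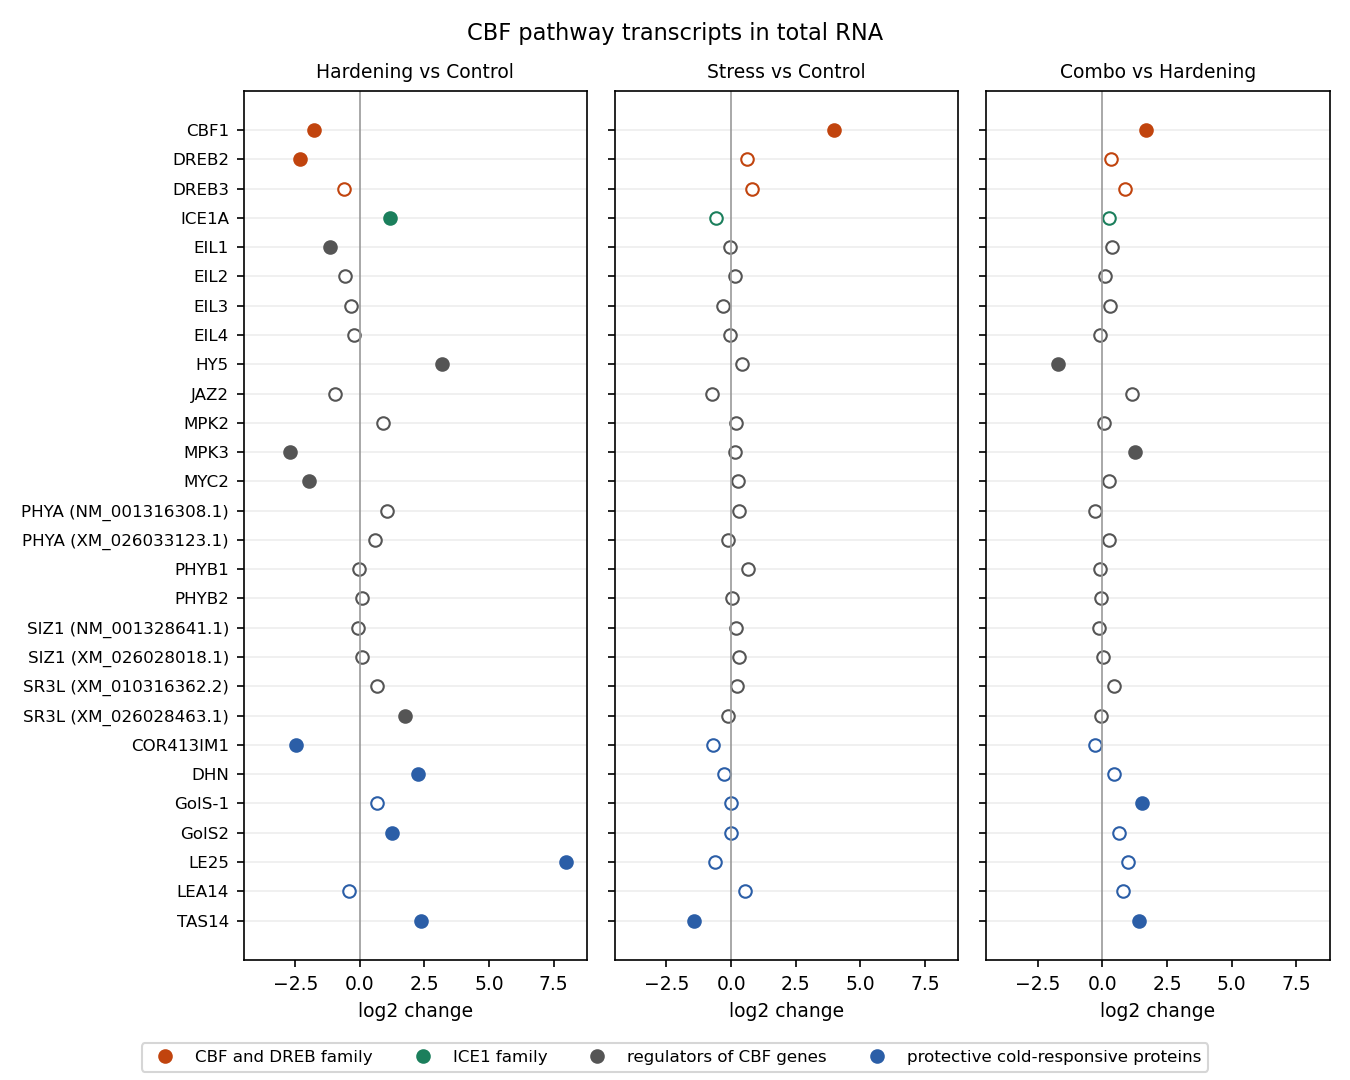
Log2 change of the tested transcripts of 4 lists (colours; the legend names them) in Hardening_vs_Control, Stress_vs_Control and Combo_vs_Hardening of total RNA. Filled points are called and open points are not, and CBF1 and TAS14 are the filled points of Stress_vs_Control, at 3.99 and -1.44.

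The transcripts most like each gene were taken from 1010 named transcripts that averaged 10 TPM or more. They were ranked by Pearson r of log2(scaled TPM + 1) over the 8 total RNA libraries. These libraries fall into 4 conditions, so r mostly follows the order of 4 means, and no p is given. CBF1 was most like CZFP1 (r = 0.995), HT1 (0.994), tXET-B1 (0.977), GRAS10 (0.976) and PIP2-9 (0.973). tXET-B1 is a xyloglucan endotransglycosylase of the cell wall and PIP2-9 a plasma membrane aquaporin. CZFP1 went from 117 ± 11.4 TPM in Control to 62.2 ± 6.31 in Hardening, 841 ± 58.5 in Stress and 171 ± 4.39 in Combo.

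ICE1A was most like JA2 (r = 0.999), MTSHP (0.997), MSRA (0.995), VAHOX1 (0.995) and ADH12A1 (0.994). JA2 is a NAC factor, MSRA a methionine sulfoxide reductase and VAHOX1 a homeobox factor. JA2 was at 158 ± 12.2 TPM in Control, 1034 ± 118 in Hardening, 79.9 ± 6.75 in Stress and 1291 ± 147 in Combo (SD, n = 2). All 5 had their lowest mean in Stress and their highest in Combo, as ICE1A did, an order that the choice by r favours. Between CBF1 and ICE1A themselves r was -0.793 over the same libraries.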

How the data were processed

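The deposited table holds TPM, which the authors made with kallisto 0.50.0 on the SL3.1 transcriptome after bcl2fastq 2.20 and read filtering. TPM sum to 1000000 per library and keep no depth, so no count model was used. CBF1, ICE1A and all lists were chosen with earlier results of these data known. Symbols came from a RefSeq names table (SLM_r2.1; 34881 identifiers matched without version), and no sequence or position is given. A list of clock genes matched 0 transcripts.

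Libraries were divided by an unweighted trimmed mean of log ratios (at each end 30% of the ratios and 5% of the levels were dropped), then log2(scaled TPM + 1) was taken. Transcripts with a mean of at least 1 were fitted with limma 3.58.1 (R 4.3.3, empirical Bayes with trend), 1 mean per group, on 8 total RNA libraries or on the 16 of a pair of fractions. P-values were two-sided and Benjamini-Hochberg adjusted. The scaling and fits were run on simulated data in which few transcripts changed, unlike the ratios of ribosome fractions to total RNA here. That run therefore does not bear on the scaling of those ratios. Figures used Python 3.11.15, pandas 2.3.3 and matplotlib 3.10.9. Replicate numbers were checked for pairing: same-numbered total RNA libraries deviated together (r 0.291 to 0.345 over 6 pairs of conditions), those of polysomes did not (-0.03 to 0.03).

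Named transcripts were both genes, every transcript with a CBF, DREB or ICE1 symbol, and the 5 most alike. Up to 4 per other list were added, with the largest called change in Stress_vs_Control and in Hardening_vs_Control. EIL1, GolS2, GolS-1 and ERF-H14 fall outside this rule. Alternatives were TPM as deposited, a pseudocount of 0.1, no filter, a replicate block, sums per gene, other sets of libraries and the omission of each replicate.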

Additional observations from a re-analysis of the deposited data

Results flagged for a closer look

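Differences between conditions in the same contrast were tested as interaction terms in limma with adjustment over all transcripts. They passed an adjusted p of 0.05 in 13 cases. Only Combo minus Control of the polysome to total ratio of ICE1A did not pass (0.03, adjusted p = 0.944). Over all transcripts 3.32% were Up and 3.55% Down in the term of total RNA. In labelled Stress minus Control of the polysome to total ratio 23% were Up and 19% Down. The count alone thus sets these genes little apart. In total RNA the response to 0 °C differed with hardening for CBF1 (-2.30, adjusted p = 0.00478) and for ICE1A (0.83, adjusted p = 0.0052), with opposite signs.

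In Control and Combo equal labels gave a positive r in both ribosome fractions, although not always the highest. Combo minus Control of the polysome to total ratio of CBF1 was -4.47 (adjusted p = 0.000204). Its monosome to total ratio differed by -1.99 (adjusted p = 0.00286) and that of ICE1A by -0.89 (adjusted p = 0.0318). With TPM as deposited the last of these had the opposite sign (0.48).

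The other cases rest on libraries that stood against their labels. The polysome to total ratio of CBF1 differed from Control by 2.17 in the libraries labelled Hardening (adjusted p = 0.0021) and by -9.00 in those labelled Stress (adjusted p = 5.38e-08). For ICE1A these differences were -1.28 (adjusted p = 0.00114) and 2.53 (adjusted p = 5.65e-06). The monosome to total ratio differed by 2.26 (adjusted p = 0.000447) and -6.30 (adjusted p = 6.72e-07) for CBF1, and by -1.60 (adjusted p = 0.000702) and 1.26 (adjusted p = 0.00245) for ICE1A. CBF1 and ICE1A had opposite signs in each of these labels.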

How the results depend on the processing

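In total RNA every call of CBF1 and ICE1A kept its direction and its side of the threshold under each alternative that gave a test. Scaling moved the median of all transcripts by up to 0.29 on the log2 scale in total RNA but by more than 1 in Control between ribosome fractions and total RNA, so ratios to total RNA depend on it. With TPM as deposited, the monosome to total ratio of CBF1 (-1.11) and the polysome to total ratio of ICE1A (-1.63) in Control reversed, both now called. The monosome to total ratio of ICE1A also changed sign without a call, in Control (-0.96) and in Combo minus Control (0.48), as did uncalled values near 0, Combo_vs_Control of CBF1 (0.20) and the polysome to total ratios in Combo of CBF1 (-0.27) and ICE1A (-0.30). Calls were also lost for CBF1 in Combo minus Control of the monosome to total ratio (-0.77), for CBF1 in the polysome to monosome ratio of labelled Stress (0.99) and for ICE1A in the polysome to total ratio of labelled Hardening minus Control (-0.56). Calls were gained for ICE1A in the monosome to total ratio of labelled Hardening (-2.12) and in the polysome to total ratio of Combo minus Control (1.33). Without a filter the polysome to monosome ratio of CBF1 in labelled Stress was 1.22 and lost its call. In Combo that ratio gained a call with all 24 libraries in 1 fit (1.51) and with sums per gene (1.45). The cause of these changes, apart from the scaling itself, was not tested.

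The replicate block changed no call of either gene (CBF1 Stress_vs_Control 3.99, interaction -2.30) and moved the regulators Up in Combo_vs_Hardening from 1 to 2. In ribosome fractions the numbers did not pair the libraries. Leaving out a replicate number removes every residual degree of freedom, so those values carry no test.

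Leaving out replicates gave, for CBF1 in total RNA, Combo_vs_Control from -0.47 to 0.29, Combo_vs_Hardening from 1.42 to 1.94 and Stress_vs_Control from 3.72 to 4.26. Its polysome to total ratio ranged from -0.62 to 0.76 in Combo and from -5.30 to -3.66 in Combo minus Control. Its monosome to total ratio ranged from 0.21 to 0.72 in Control, from -6.17 to -5.53 in labelled Stress and from -6.71 to -5.90 in labelled Stress minus Control. Its polysome to monosome ratio ranged from 0.77 to 2.12 in Combo and from 1.00 to 1.41 in labelled Stress.

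For ICE1A the polysome to total ratio ranged from -0.23 to 0.36 in Control, from -1.65 to -1.06 in labelled Hardening minus Control and from 2.20 to 2.87 in labelled Stress minus Control. The monosome to total ratio ranged from 0.50 to 0.89 in Control, from -0.83 to -0.41 in labelled Hardening, from 1.89 to 2.11 in labelled Stress and from -0.24 to 0.087 in Combo. Minus Control it ranged from -1.68 to -1.08 in labelled Hardening and from -1.13 to -0.52 in Combo, where the value without Combo monosome replicate 1 (-1.05) was called. The polysome to monosome ratio in Control ranged from -1.19 to -0.27 and was called without Control polysome replicate 1 (-1.04).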
